A study of Mus musculus with 6 samples.

Results

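The 10 genes described here are S100a8 and S100a9, which encode the paired calcium-binding proteins of calprotectin, and 8 genes of neutrophil granules and the neutrophil surface: Mpo, Elane, Ly6g, Ngp, Camp, Ltf, Lcn2 and Csf3r. They were found by matching each Ensembl identifier of the deposited count table to its symbol in GENCODE M21, and all 10 were among the 46983 genes listed. The question was whether neutrophil RNA accompanied the RNA of S100a8 and S100a9. The cells were GFP+ neural crest cells (NCCs) sorted by FACS from E11.25 mouse embryos, and their poly(A) RNA was sequenced in 3 control and 3 BAF155/170-deficient samples. All 6 embryos carried Wnt1 Cre/+, whose Cre is active in NCCs but also in the dorsal neural tube, together with Rosa26 mTmG/+, the reporter that Cre switches to GFP. The controls were BAF155 flox/+ and BAF170 flox/+ and thus lacked 1 copy of each gene in the cells with Cre, whereas the deficient embryos were BAF155 flox/flox and BAF170 flox/flox. BAF155 and BAF170 are core subunits of the BAF chromatin remodeling complex and are encoded by Smarcc1 and Smarcc2.

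Neutrophils fill their granules in a fixed order as they mature. The earliest, primary granules hold myeloperoxidase and elastase, and the later, specific granules hold lactoferrin, cathelicidin, neutrophilic granule protein and lipocalin 2. S100a8 and S100a9 lie outside the granules and are among the most abundant proteins of the neutrophil cytosol, but monocytes and activated macrophages also express them. Csf3r and Lcn2 are not restricted to neutrophils either: monocytes and macrophages carry the G-CSF receptor, and inflammatory signals raise lipocalin 2 in many cell types.

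Counts on genes summed to between 8191219 and 11661941 in the control libraries and to between 12633319 and 19808620 in the deficient libraries. Levels are given as CPM, the usual scaling of counts to the library size, here after TMM normalization. Of the targeted genes, Smarcc1 fell in the deficient libraries (log2 fold change −0.71, standard error 0.16, edgeR, Benjamini-Hochberg adjusted p = 0.0676), whereas the change of Smarcc2 (log2 fold change −0.11, standard error 0.058) missed the threshold (adjusted p = 0.251). A list of 16 neural crest genes summed to between 74.3 and 144 CPM in the controls and to between 39.6 and 63.1 CPM in the deficient libraries. By contrast, 13 macrophage genes summed to between 12635 and 14607 CPM in the controls and to between 14766 and 16121 CPM in the deficient libraries, so macrophage RNA was plentiful in libraries labelled as NCCs. In bulk RNA, a change in the number of cells of a type and a change in the RNA per cell cannot be told apart.

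Levels differed widely within the set. Csf3r and Lcn2 were high, S100a8 and S100a9 were intermediate, Ngp was low, and Camp, Ltf, Elane, Mpo and Ly6g were represented by few or no reads. Of all counts on the 10 genes, Csf3r and Lcn2 together held between 94.0% and 95.5% of a library, S100a8 and S100a9 between 3.26% and 5.08%, and the 6 others between 0.746% and 1.45%. Of these 10 genes 5 passed the filter on low counts and entered the quasi-likelihood test of edgeR (S100a8, S100a9, Ngp, Lcn2 and Csf3r). None of the 5 was called, a call being an adjusted p of at most 0.1, a log2 change of 0.58 or more up or down and 2 CPM or more on average. Over all 13961 tested genes 4.94% were called, 4.88% lower and 0.0573% higher in the deficient libraries. DESeq2 and limma-voom called none of the 5 either. An unadjusted edgeR p under 0.05 was reached by 4 of the 5, all with higher levels in the deficient libraries, beside 27.3% of all tested genes.

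**Figure D1:**
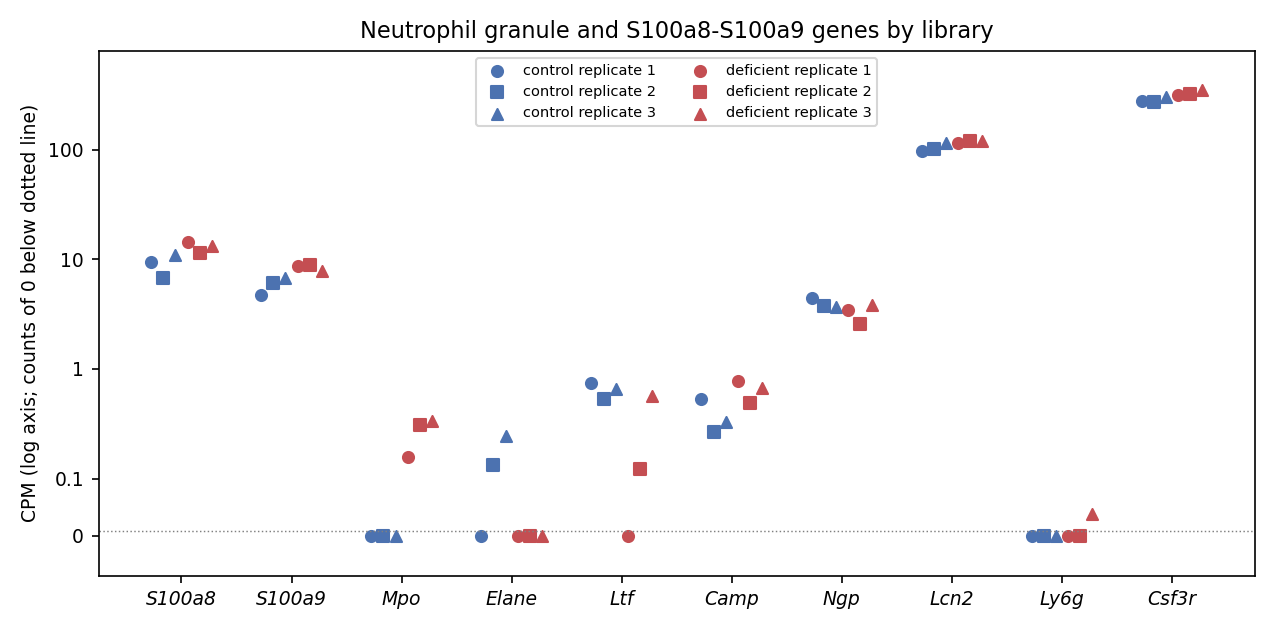
Normalized level in CPM (log axis) of each of the 10 genes in the 3 control (blue) and 3 BAF155/170-deficient (red) libraries, with 1 point per library and counts of 0 drawn below the dotted line. S100a8 and S100a9 lie between 4.68 and 14.4 CPM with all red points above all blue points, whereas Mpo, Elane, Ltf, Camp and Ly6g stay under 0.8 CPM.

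S100a8 and S100a9 were present in every library and were somewhat higher in the deficient ones. S100a8 (ENSMUSG00000056054.9, chromosome 3 of GRCm38 from 90668978 to 90670035, plus strand) measured 9.36, 6.82 and 10.9 CPM in the 3 controls (replicates 1, 2 and 3), compared to 14.4, 11.5 and 13.1 CPM in the 3 deficient libraries. All deficient values thus lay above all control values, although deficient replicate 2 exceeded control replicate 3 only narrowly. These levels rest on 51 to 133 counts in a control library and on 184 to 275 counts in a deficient library. The mean was 9.03 ± 2.07 CPM in the controls, compared to 13 ± 1.43 CPM with BAF155/170 deficiency (SD, n = 3 each). The log2 fold change was 0.51 (standard error 0.18, 95% interval 0.12 to 0.89) and missed the threshold (edgeR, Benjamini-Hochberg adjusted p = 0.105). S100a9 (ENSMUSG00000056071.12, chromosome 3 from 90692632 to 90695721, minus strand) had control values of 4.68, 6.02 and 6.81 CPM, compared to 8.69, 8.86 and 7.83 CPM in the deficient libraries, again without overlap. Its log2 fold change of 0.53 (standard error 0.19, 95% interval 0.12 to 0.94) was close to that of its partner and missed the threshold as well (edgeR, Benjamini-Hochberg adjusted p = 0.109). Groups without overlap and with higher deficient values were found in 15.0% of all tested genes.

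Both genes encode subunits of the same heterodimer, and their RNAs kept a similar proportion. S100a8 made up between 53.1% (exact 95% binomial interval 42.7 to 63.4, control replicate 2) and 66.7% (57.9 to 74.6, control replicate 1) of the counts on the pair. The number of S100a8 counts per S100a9 count was 1.58 ± 0.434 (SD, n = 3) in the controls and 1.54 ± 0.207 (SD, n = 3) in the deficient libraries, with overlapping groups (exact two-sided permutation test, p = 1). Summed, the pair had control values of 14, 12.8 and 17.7 CPM, compared to 23.1, 20.4 and 20.9 CPM in the deficient libraries. That is 1.44 times the control mean (exact two-sided permutation test, p = 0.1, the smallest that 3 against 3 libraries allow). Leaving out a single library changed the call: without control replicate 3 both genes were called, each with a log2 fold change of 0.67 (edgeR, Benjamini-Hochberg adjusted p = 0.0338 for S100a8 and 0.0509 for S100a9), beside 0.180% of all genes tested in that fit called higher. The Benjamini-Hochberg adjusted p of S100a8 ran from 0.00500 to 0.298 over 15 alternatives, and that of S100a9 from 0.00374 to 0.306. Both lowest values came from scaling to the neural crest list, under which 71.1% of all tested genes were called higher.

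The genes are transcribed from opposite strands and their annotated spans are 22596 bases apart. Their promoters are printed because both RNAs were present in all libraries and differed alike between the groups. Each window holds 250 bases before the RefSeq start and 50 bases from it on (GRCm38.p6), written 5′ to 3′ on the gene's strand, and position 0 is the first transcribed base. Capitals mark matches on either strand to TTNNGNAA (a core of sites for C/EBP factors, which drive myeloid genes), GAGGAA (a core of sites for PU.1, the myeloid ETS factor encoded by Spi1) and TATAAA (the TATA box). No match overlapped a match to another of these motifs. The S100a8 window lies at chr3:90668821-90669120 (plus strand) and the S100a9 window at chr3:90695672-90695971 (minus strand).
S100a8: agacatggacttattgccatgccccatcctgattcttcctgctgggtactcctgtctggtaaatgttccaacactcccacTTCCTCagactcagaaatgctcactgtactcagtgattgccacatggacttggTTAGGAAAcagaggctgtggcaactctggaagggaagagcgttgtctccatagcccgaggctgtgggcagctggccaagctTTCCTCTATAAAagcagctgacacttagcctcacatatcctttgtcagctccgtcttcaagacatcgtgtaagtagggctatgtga
S100a9: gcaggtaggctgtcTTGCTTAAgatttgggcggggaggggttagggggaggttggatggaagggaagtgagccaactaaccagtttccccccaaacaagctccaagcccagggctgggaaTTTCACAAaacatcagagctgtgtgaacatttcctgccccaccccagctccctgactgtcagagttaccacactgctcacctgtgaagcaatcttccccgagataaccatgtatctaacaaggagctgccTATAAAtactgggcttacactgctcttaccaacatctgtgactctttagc
In S100a8 there was 1 match to TTNNGNAA (from −117 to −110), 2 to GAGGAA and 1 to TATAAA (from −30 to −25). In S100a9 there were 2 matches to TTNNGNAA (from −236 to −229 and from −130 to −123), none to GAGGAA and 1 to TATAAA, which begins at the annotated start itself. Among 32851 promoters of this length, 40.7% held TTNNGNAA, 28.3% GAGGAA and 13.6% TATAAA. Of the 10 genes, 6 held the first, 7 the second and 3 the last of these motifs. A match is a description of the letters and not a measured site.

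Mpo and Elane, whose products fill the primary granules, had almost no reads. Mpo (ENSMUSG00000009350.13, chromosome 11 from 87793581 to 87804413), which encodes myeloperoxidase, the enzyme that makes hypochlorous acid, had 0 counts in each control library and 2, 5 and 7 counts in deficient replicates 1 to 3. A count of 0 allows up to 3 counts, or between 0.246 and 0.401 CPM in a single control library and 0.103 CPM over the 3 together, and the level over the 3 deficient libraries was 0.279 CPM. With 14 counts in all, no fold is given. Groups did not overlap (exact two-sided permutation test, p = 0.1, the smallest possible), and the deficient libraries were the deeper ones. Fitted without the filter on low counts, Mpo had an edgeR Benjamini-Hochberg adjusted p of 0.0884 at a mean of 0.135 CPM, below the level needed for a call. In that fit the adjusted p was 0.0236 for S100a8, 0.0676 for S100a9, 0.0772 for Lcn2 and 0.0283 for Csf3r. How common such low values were among the other genes of that fit was not counted. The values therefore do not single out Mpo or these 4 genes. None of the 10 genes was called there, beside 33 called higher and 982 called lower of 32523 genes. Reads of Mpo cannot be told from those of the overlapping minus-strand gene Gm11505 if counting ignored strand.

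Elane (ENSMUSG00000020125.6, chromosome 10 from 79886247 to 79888215), the gene of neutrophil elastase, went the other way on even fewer reads. It had 0, 1 and 3 counts in the controls and 0 counts in every deficient library. Over the group this is 0.138 CPM in the controls, where a count of 0 allows up to 0.0598 CPM over the deficient group, and so few counts allow no comparison. The few reads of Mpo and Elane, which belong to the same granule, thus came from opposite groups. Ly6g (ENSMUSG00000022582.4, chromosome 15 from 75155240 to 75159126), whose product is the surface antigen by which mouse neutrophils are commonly sorted, had 1 count in all, in deficient replicate 3. Reads that Ly6g shares with other Ly6 genes could have been dropped or split by the counting, whose treatment of such reads is not given in the sources used here. The Mpo window (chr11:87793534-87793833, plus strand) is shown beside those above, as it held 2 matches to GAGGAA and none to the other motifs.
Mpo: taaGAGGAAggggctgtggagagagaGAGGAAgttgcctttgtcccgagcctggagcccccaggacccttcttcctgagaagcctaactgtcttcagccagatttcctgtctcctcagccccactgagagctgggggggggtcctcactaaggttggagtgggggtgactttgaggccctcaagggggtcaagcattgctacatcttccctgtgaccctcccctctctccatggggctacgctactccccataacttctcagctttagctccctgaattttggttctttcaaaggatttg
Elane likewise held GAGGAA alone, whereas Ly6g held all 3 motifs.

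Of the specific granule genes Ngp, Camp and Ltf, only Ngp passed the filter on low counts, and it did not share the higher deficient level of S100a8 and S100a9. Ngp (ENSMUSG00000032484.8, chromosome 9 from 110419747 to 110423012), which encodes a cathelicidin-related granule protein, had control values of 4.47, 3.75 and 3.69 CPM, compared to 3.45, 2.57 and 3.85 CPM in the deficient libraries. The groups overlapped and the deficient mean was lower, at 3.29 ± 0.655 CPM (SD, n = 3) against 3.97 ± 0.432 CPM (SD, n = 3). The log2 fold change was −0.27 (standard error 0.25, 95% interval −0.82 to 0.28, edgeR, Benjamini-Hochberg adjusted p = 0.525). The interval thus leaves room for a fall or a small rise. Camp (ENSMUSG00000038357.10, chromosome 9 from 109847379 to 109849617), the antimicrobial cathelicidin, had 5, 2 and 4 counts in the controls and 10, 8 and 14 counts in the deficient libraries. Its level of 0.376 ± 0.138 CPM in the controls, compared to 0.646 ± 0.148 CPM with BAF155/170 deficiency (SD, n = 3 each), overlapped between the groups (exact two-sided permutation test, p = 0.2). Ltf (ENSMUSG00000032496.7, chromosome 9 from 111019271 to 111042767), the iron-binding lactoferrin, had 7, 4 and 8 counts in the controls and 0, 2 and 12 counts in the deficient libraries. Deficient replicate 3 alone was within the range of the controls in CPM, so Ltf also overlapped (exact two-sided permutation test, p = 0.2). Ngp carried 282 of the 377 counts on the 6 restricted genes, and its promoter (chr9:110419558-110419857, plus strand) held 3 matches to TTNNGNAA and none to the other motifs.
Ngp: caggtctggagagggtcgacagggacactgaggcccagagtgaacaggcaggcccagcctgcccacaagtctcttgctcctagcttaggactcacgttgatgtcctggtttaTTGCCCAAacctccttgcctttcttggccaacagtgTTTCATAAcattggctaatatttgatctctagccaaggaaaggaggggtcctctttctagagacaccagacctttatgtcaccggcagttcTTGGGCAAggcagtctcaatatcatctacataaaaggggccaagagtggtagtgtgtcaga
Camp held no match to any of the 3 motifs.

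As a sum, the RNA of Mpo, Elane, Ly6g, Ngp, Camp and Ltf did not separate the groups as that of S100a8 and S100a9 did. The 6 genes had control values of 5.74, 4.68 and 4.92 CPM, compared to 4.39, 3.48 and 5.46 CPM in the deficient libraries. The groups overlapped, and the deficient mean of 4.44 ± 0.990 CPM (SD, n = 3) was below the control mean of 5.12 ± 0.556 CPM (SD, n = 3; exact two-sided permutation test, p = 0.4). Ngp carried most of this sum, and its members went both ways. Deficient means were lower for Ngp, Ltf and Elane and higher for Camp, Mpo and Ly6g. Within each library, where no scaling enters, there were 2.44, 2.74 and 3.60 counts on S100a8 and S100a9 per count on these 6 genes in the controls and 5.27, 5.86 and 3.83 in the deficient libraries. This ratio was higher in every deficient library, by 0.764 on the log2 scale (exact two-sided permutation test, p = 0.1, the smallest possible). Deficient replicate 3, with the most reads on the 6 genes (115 counts), came nearest to the controls. Against all 8 neutrophil genes, including Lcn2 and Csf3r, the difference was 0.344 on the log2 scale, again without overlap (exact two-sided permutation test, p = 0.1). That sum is set by Lcn2 and Csf3r: all 8 genes were at 395 ± 21.9 CPM in the controls, compared to 452 ± 24.2 CPM with BAF155/170 deficiency (SD, n = 3 each).

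**Figure D2:**
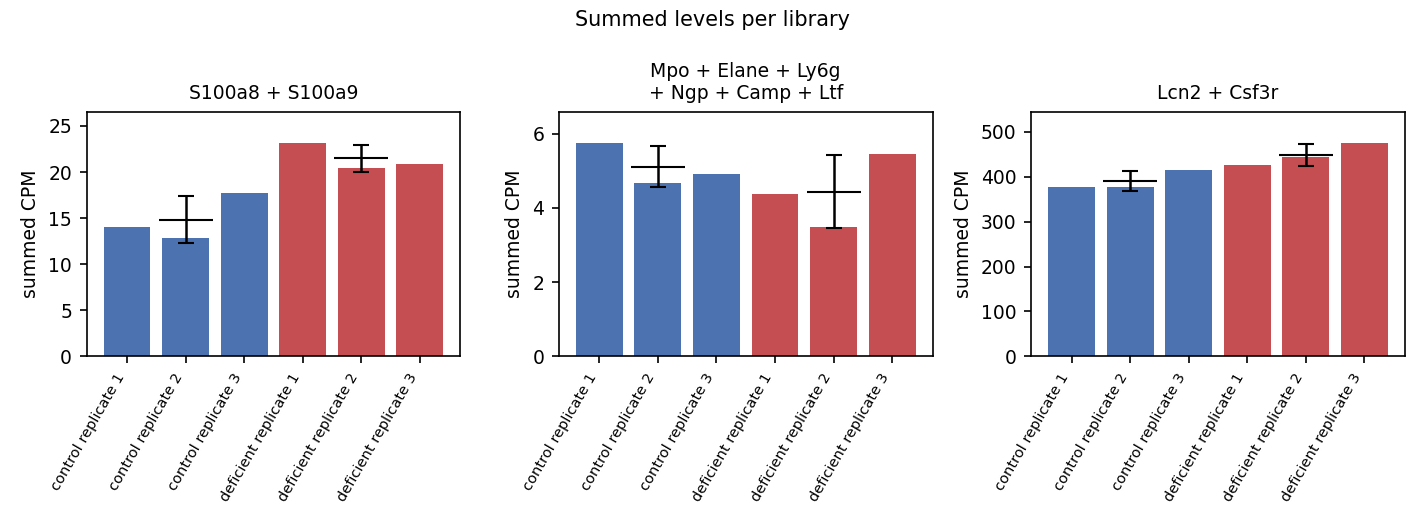
Summed CPM per library of S100a8 and S100a9 (left), of Mpo, Elane, Ly6g, Ngp, Camp and Ltf (middle) and of Lcn2 and Csf3r (right), with the group mean and SD of 3 libraries in black. The deficient libraries (red) exceed the controls (blue) on the left and right, and the groups overlap in the middle, where the sum stays between 3.48 and 5.74 CPM.

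Csf3r and Lcn2 were the abundant genes of the set and kept a steady proportion to each other, with slightly higher deficient levels. Csf3r (ENSMUSG00000028859.14, chromosome 4 from 126024550 to 126044440), the receptor for granulocyte colony-stimulating factor, had control values of 281, 274 and 301 CPM, compared to 313, 322 and 354 CPM in the deficient libraries. The deficient values all lay above the controls. The log2 fold change of 0.21 (standard error 0.066, 95% interval 0.066 to 0.35) had a Benjamini-Hochberg adjusted p of 0.0926 by edgeR, and so passed the adjusted p alone but not the fold change threshold. An adjusted p of at most 0.1 with a higher deficient level was found in 4.18% of all tested genes, and in 1 of these 5. With either of control replicates 1 and 2, or of deficient replicates 2 and 3, left out, the adjusted p of Csf3r was above 0.1, with a range over all libraries left out of 0.0239 to 0.330 (edgeR, Benjamini-Hochberg). It was 0.224 by the same test with library totals in place of TMM. Lcn2 (ENSMUSG00000026822.14, chromosome 2 from 32384633 to 32388252), the siderophore-binding lipocalin, had control values of 96.4, 102 and 114 CPM, compared to 114, 120.4 and 119 CPM in the deficient libraries. Control replicate 3 and deficient replicate 1 were nearly equal, with no overlap only beyond the printed digits. Its log2 fold change was 0.18 (standard error 0.070, 95% interval 0.023 to 0.33, edgeR, Benjamini-Hochberg adjusted p = 0.135). There were 0.366 ± 0.0200 Lcn2 counts per Csf3r count in the controls (SD, n = 3) and 0.359 ± 0.0192 in the deficient libraries (SD, n = 3).

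The promoters of these abundant genes are given for comparison with those of S100a8 and S100a9, the Csf3r window at chr4:126024409-126024708 (plus strand) and the Lcn2 window at chr2:32387690-32387989 (minus strand).
Csf3r: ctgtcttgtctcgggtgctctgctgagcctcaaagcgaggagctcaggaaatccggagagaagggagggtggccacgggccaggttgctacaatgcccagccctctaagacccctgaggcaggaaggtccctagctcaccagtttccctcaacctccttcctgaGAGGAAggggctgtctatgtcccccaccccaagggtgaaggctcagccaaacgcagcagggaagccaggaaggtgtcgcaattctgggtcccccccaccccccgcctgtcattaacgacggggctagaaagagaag
Lcn2: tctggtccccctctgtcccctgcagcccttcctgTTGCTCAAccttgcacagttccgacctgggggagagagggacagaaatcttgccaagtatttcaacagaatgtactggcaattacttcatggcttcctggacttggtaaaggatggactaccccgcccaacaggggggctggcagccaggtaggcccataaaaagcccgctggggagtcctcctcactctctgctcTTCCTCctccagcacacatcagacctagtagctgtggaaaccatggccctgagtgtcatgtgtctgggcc
Csf3r held 1 match to GAGGAA (from −86 to −81) and none to the other motifs, and Lcn2 held 1 match to TTNNGNAA (from −216 to −209) and 1 to GAGGAA (from −20 to −15). Neither held TATAAA.

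Levels of different genes were compared per kilobase of exons, as CPM divided by the exonic length in GENCODE M21. On this scale Csf3r ranged from 75.8 to 98.1, Lcn2 from 36.7 to 45.9, S100a8 from 9.83 to 20.8, S100a9 from 8.96 to 17.0 and Ngp from 2.10 to 3.66 over the 6 libraries. Camp ranged from 0.353 to 1.03, Elane from 0 to 0.250, Ltf from 0 to 0.216, Mpo from 0 to 0.0971 and Ly6g from 0 to 0.0504. The order was thus Csf3r, Lcn2, the S100 pair, Ngp and Camp, with S100a8 and S100a9 overlapping each other and the last 4 genes overlapping each other. S100a8 and S100a9 were each above Ngp, the highest of the 6 restricted genes, in every library. For scale, the control means per kilobase were 2465 for Lyz2, the lysozyme of myeloid cells, 1500 for C1qb, a complement subunit made by macrophages, and 292 for Adgre1, the F4/80 antigen of mouse macrophages.

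**Figure D3:**
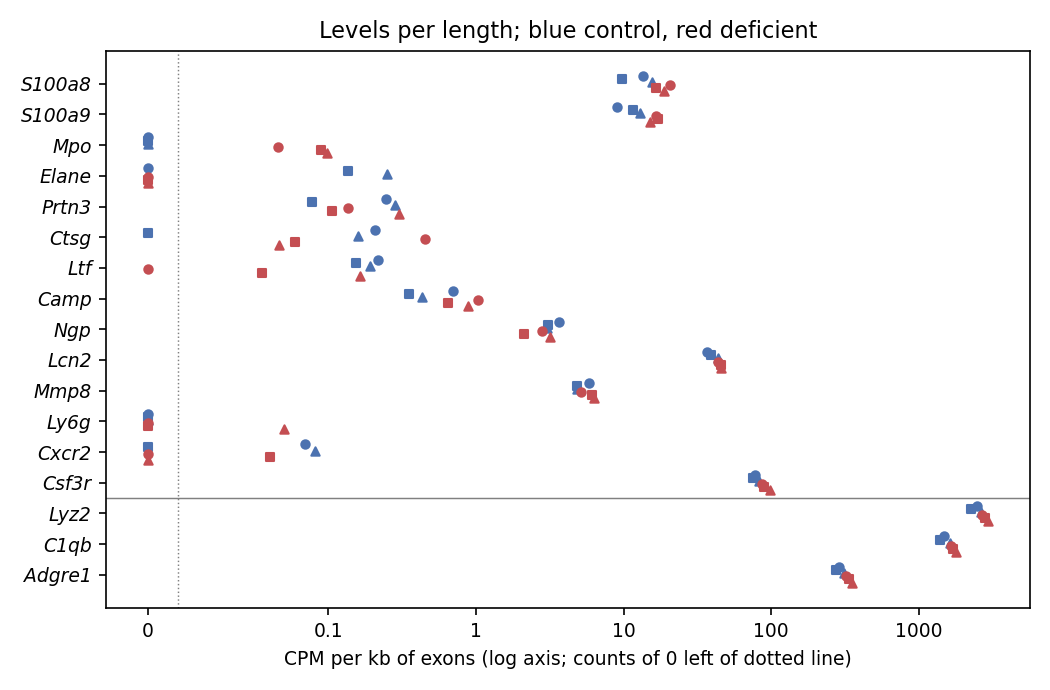
Level per exonic kilobase (log axis) of the 10 genes, of 4 further neutrophil genes (Prtn3, Ctsg, Mmp8 and Cxcr2) and, below the line, of 3 macrophage genes, with 1 point per library and counts of 0 left of the dotted line. Csf3r and Lcn2 stand between S100a8 and S100a9 on one side and Adgre1 on the other. Mmp8 and Ngp lie between 2.10 and 6.28, and Mpo, Elane, Prtn3, Ctsg, Ltf, Ly6g and Cxcr2 stay below 0.5.

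Further defining neutrophil genes were read at similarly low levels. Prtn3, the proteinase of primary granules next to Elane, had 28 counts in all, Ctsg, the granule cathepsin, had 12, and Cxcr2, the chemokine receptor that brings neutrophils to tissue, named after its values were seen, had 7. Mmp8, the neutrophil collagenase, was an exception at 12.5 ± 1.41 CPM in the controls, compared to 14.2 ± 1.48 CPM with BAF155/170 deficiency (SD, n = 3 each), with overlapping groups (log2 fold change 0.19, edgeR, Benjamini-Hochberg adjusted p = 0.394). Of 7 primary granule genes 1 was tested, Serpinb1a, an inhibitor of neutrophil proteases, with a log2 fold change of 0.20 (edgeR, Benjamini-Hochberg adjusted p = 0.185), and 5 of the 7 had fewer than 15 counts over all libraries. Of 14 specific and gelatinase granule genes 7 were tested, with none called and a median log2 fold change of 0.18, and Lcn2, Mmp8 and Hp had the highest CPM. The largest fold change of this list was that of Padi4, which encodes the enzyme that citrullinates histones in neutrophils and is named after its values were seen. It had 0.890 ± 0.242 CPM in the controls, compared to 1.55 ± 0.558 CPM with BAF155/170 deficiency (SD, n = 3 each), with overlapping groups (log2 fold change 0.77, standard error 0.43, edgeR, Benjamini-Hochberg adjusted p = 0.275). Of 10 surface genes 7 were tested, with a median of 0.17, none called and Csf3r alone at an adjusted p of at most 0.1. The highest of these were Fcgr3, Csf3r and Itgam, which macrophages share. The median over all tested genes was −0.018.

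Transcription factors of the myeloid lineage ranged from abundant to barely read. Of 10 such factors 8 were tested, with none called and a median log2 fold change of 0.18 (edgeR). Irf8, which favours monocytes and macrophages, had 1923 ± 146 CPM (SD, n = 3) in the controls, Spi1, which encodes PU.1, had 611 ± 46.0 CPM (SD, n = 3), and Cebpb, a C/EBP factor of activated macrophages, had 329.7 ± 31.6 CPM (SD, n = 3). Cebpe, which is required for specific granules, had 25 counts in all. Gfi1, a repressor needed for neutrophil differentiation, had 21.0 ± 1.12 CPM in the controls, compared to 23.8 ± 1.31 CPM with BAF155/170 deficiency (SD, n = 3 each), without overlap (edgeR, Benjamini-Hochberg adjusted p = 0.218). Myb, a factor of progenitors, had 70 counts in all, and Klf5 had 22. These 4 are named after their values were seen. Of 11 genes for recruiting signals 9 were tested, with a median of 0.14 and none called. Tnf, Il1b and Ccl3 were the highest of them, and Csf3, the ligand of the receptor encoded by Csf3r, also named after its values were seen, had 3.13 ± 0.423 CPM in the controls, compared to 3.26 ± 0.643 CPM with BAF155/170 deficiency (SD, n = 3 each), with overlapping groups.

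Among the partners of calprotectin, 6 of 7 receptor genes were tested, with none called and a median log2 fold change of 0.16, although Cd14 and Cd36 had higher levels and an edgeR adjusted p no greater than 0.1. Cd68, Cd36 and Cd14 were the most abundant of this list. The 6 genes of the NADPH oxidase, which makes superoxide in neutrophils and macrophages alike, had a median of 0.21, with none called and 4 (Cybb, Ncf4 and Rac2 among them) at an adjusted p of at most 0.1. Cybb, Cyba and Ncf1 were its most abundant members. Of 17 S100 genes 8 were tested, with a median of 0.24 and none called, and S100a11 alone passed the adjusted p (log2 fold change 0.31, edgeR, Benjamini-Hochberg adjusted p = 0.0996). S100a8 and S100a9 had the largest positive log2 fold changes of these 8 genes, and S100a4 alone had a negative one (−0.60, standard error 1.2). S100a6, S100a10 and S100a11 had the highest CPM. S100a4, named after its values were seen, varied within the groups far more than S100a8 did, with control values of 2.45, 2.41 and 7.63 CPM, compared to 0.548, 7.33 and 0.617 CPM in the deficient libraries.

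Macrophage RNA differed between the groups in the same direction as Csf3r, Lcn2, S100a8 and S100a9. All 13 macrophage genes were detected in every library and had higher deficient means, with a median log2 fold change of 0.19, none called and Adgre1 at an adjusted p of at most 0.1. Ctss, Lyz2 and C1qb were the highest. After TMM normalization the sum of the 13 genes was 1.14 times as high in the deficient as in the control libraries, without overlap (exact two-sided permutation test, p = 0.1). As a share of all library counts the groups overlapped, with 1.53% in control replicate 3 against 1.49% and 1.52% in deficient replicates 1 and 2. Per 1000 counts on the macrophage list, Csf3r had 20.9, 21.7 and 20.6 counts in the controls and 21.2, 20.9 and 22.0 in the deficient libraries, with overlapping groups (exact two-sided permutation test, p = 0.6). Lcn2 had 7.18, 8.11 and 7.83 counts in the controls and 7.75, 7.81 and 7.40 in the deficient libraries, also overlapping (exact two-sided permutation test, p = 0.8). Relative to macrophage RNA, neither Csf3r nor Lcn2 thus separated the groups. S100a8 and S100a9 had 1.05, 1.02 and 1.21 counts per 1000 in the controls and 1.56, 1.32 and 1.30 in the deficient libraries, which did not overlap (exact two-sided permutation test, p = 0.1, the smallest possible). The 6 restricted genes had 0.428, 0.371 and 0.337 counts per 1000 in the controls and 0.297, 0.226 and 0.339 in the deficient libraries, which overlapped (exact two-sided permutation test, p = 0.2).

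**Figure D4:**
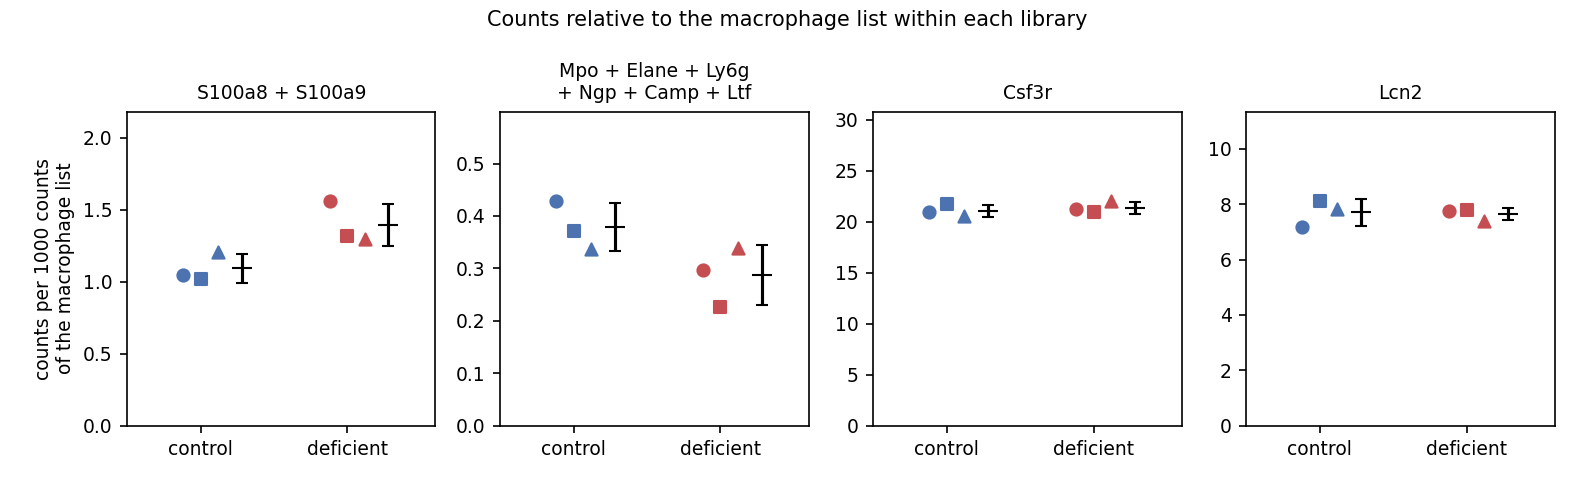
Counts per 1000 counts of the macrophage list in each library for S100a8 and S100a9, for the 6 restricted neutrophil genes, for Csf3r and for Lcn2, with the mean and SD of each group of 3 libraries in black. Csf3r stays between 20.6 and 22.0 and Lcn2 between 7.18 and 8.11 in both groups, whereas S100a8 and S100a9 are at 1.02 to 1.21 in the controls and at 1.30 to 1.56 in the deficient libraries.

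The size of each change therefore depended on the reference. Scaled to the macrophage list in the edgeR fit, the log2 fold change was 0.34 for S100a8 (standard error 0.18, Benjamini-Hochberg adjusted p = 0.257), 0.35 for S100a9 (standard error 0.20, adjusted p = 0.286), 0.021 for Csf3r, −0.0095 for Lcn2 and −0.46 for Ngp. That scaling moved the median of all tested genes to −0.20. Scaled to the neural crest list, whose sum was lower in the deficient libraries, all 5 genes were called higher, with log2 fold changes of 1.54 for S100a8, 1.59 for S100a9, 1.30 for Csf3r, 1.25 for Lcn2 and 0.84 for Ngp, but 71.1% of all tested genes were then called higher too, and their median stood at 1.08. Relative to the median of all tested genes, S100a8 was higher by 0.52 with TMM, 0.54 with the macrophage list and 0.46 with the neural crest list, and S100a9 by 0.55, 0.55 and 0.52. On the same basis Ngp was lower, at −0.25, −0.25 and −0.24. A scaling moves all genes nearly alike, so these near-equal values are no sign of stability.

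**Figure D5:**
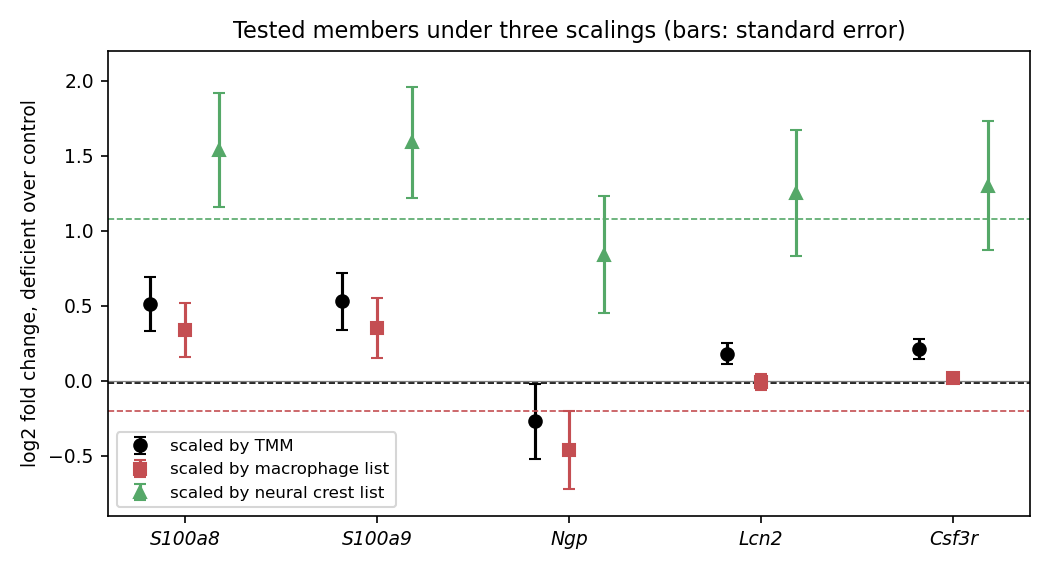
Log2 fold change of the 5 tested genes (deficient over control, points with standard errors from edgeR) with TMM normalization (black), scaling to the macrophage list (red) and scaling to the neural crest list (green). Dashed lines give the median of all tested genes in each fit. The line moves from −0.20 to 1.08 with the scaling and the 5 genes move with it.

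Markers of other blood and tissue cells were examined beside the set. Of 11 monocyte genes, all tested, the median log2 fold change was 0.078, none was called, Cd14 was higher and Vcan lower with an edgeR adjusted p no greater than 0.1 (7.75% of all tested genes were lower by that measure), and the summed level ran from 697 to 740 CPM in the controls and from 709 to 734 CPM in the deficient libraries (exact two-sided permutation test, p = 1). Cd14, Vcan and Itgam led this list. Of these 11 genes, 9 had positive log2 fold changes, whereas Fn1 (−0.88) and Vcan (−0.22) had negative ones. Without Fn1 and Vcan, a setting added later, the monocyte sum was 437, 424 and 489 CPM in the controls. The deficient libraries then had 487, 516 and 521 CPM, and the groups overlapped (exact two-sided permutation test, p = 0.2). Of 8 megakaryocyte genes 3 were tested (Pf4, Itga2b and Ppbp, median 0.20, none called), and of 10 mast cell, eosinophil and basophil genes 3 were tested, where Kit, the stem cell factor receptor that neural crest derivatives also use, was called lower (log2 fold change −0.98, edgeR, Benjamini-Hochberg adjusted p = 0.0777). Erythroid genes, led by Hbb-y, Hba-x and Hba-a1, had a median of −1.73 over 7 tested genes with none called, and summed to between 17.2 and 67.6 CPM in the controls and to between 10.3 and 16.4 CPM in the deficient libraries. The 67.6 CPM was that of control replicate 2, and without this library the median was −0.60. Of the 7 genes, 5 had negative log2 fold changes, whereas Hba-a1 (0.022) and Hba-a2 (0.48) had positive ones. Of 7 endothelial genes 4 were tested (median 0.058, none called), Kdr, Pecam1 and Cdh5 being the highest. No lymphoid or epithelial gene passed the filter, their lists of 8 genes each (led by Cd79a and Cd79b and by Cdh1, Epcam and Trp63) summing to at most 1.72 and 3.88 CPM in any library. Of the neural crest genes 15 of 16 were tested and all 15 had lower deficient means (median −1.18), 8 being called lower (Sox10, Tfap2a, Tfap2b, Twist1, Prrx1, Sox9, Alx1 and Msx1), beside the 4.88% of all tested genes. The part of these cell types in the levels of S100a8 and S100a9 was not tested.

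The genes whose levels were most like the summed level of S100a8 and S100a9 over the 6 libraries came from none of the myeloid lists. By Pearson's r of log2 CPM, the first 5 of 10838 genes with at least 2 CPM included Tbc1d9b (0.994), Ppp1r13b (0.993), Trim14 (0.991) and Tmed9 (0.988). The r of these 4 ran from 0.921 to 0.982 without the 2 libraries farthest from the median of the pair. Csf3r stood at place 1452 (0.840, and 0.366 without those 2 libraries), Lcn2 at place 1226 (0.859, and 0.107 without them) and Ngp at place 7428 (−0.517). These values describe 6 points that share the 2 groups and their difference in depth, and among so many genes some resemble any pattern.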

How the data were processed

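Poly(A) RNA of sorted GFP+ NCCs from 3 control and 3 BAF155/170-deficient embryos was sequenced as strand-specific paired-end libraries. The authors trimmed adapters (cutadapt 1.18 per the labels), aligned the reads to GRCm38 with STAR, assigned them to genes with featureCounts and deposited raw counts per gene. The annotation release, strand setting and treatment of reads with several matches are not given in the sources used here. Of 46983 identifiers, 46488 matched GENCODE M21 without their version, 37902 of them with the same version, so exonic lengths are approximate.

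Counts were filtered with filterByExpr (minimum count 10, minimum total 15), normalized by TMM and fitted over 13961 genes with edgeR 4.0.16 in R 4.3.3 (robust quasi-likelihood, condition as the only term, Benjamini-Hochberg adjustment). The call thresholds follow the study's methods, which used limma; limma-voom (3.58.1) and DESeq2 1.42.0 were alternatives. The fit was tested on simulated data. Sums and ratios over libraries were compared by exact permutation (scipy 1.17.1). Each sample is 1 embryo, and edgeR intervals cover the spread between samples (biological coefficient of variation 12.8%), whereas binomial intervals and floors cover counting error only.

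The 10 genes, the marker lists and the scalings were chosen with earlier results of these data known. Genes named are the 10 members, from each list every called gene or else the 3 with the highest mean CPM, and the 5 genes most like the S100 pair, predicted genes left out; a few genes that this rule or an adjusted p would name are not reported here. Genes named for an adjusted p alone, and others marked in the text, were chosen after their values were seen. Replicate pairs differed by more than counting noise in every group (chi-square per degree of freedom 9.34 to 52.8).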

Additional observations from a re-analysis of the deposited data

How the results depend on the processing

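The count of called genes among the 10 stayed at 0 under DESeq2, limma-voom, library totals, both other filters, the replicate block, the macrophage scaling and 5 of the 6 fits that left out a library, and was 1 (Csf3r) with the adjusted p alone, 5 with the neural crest scaling and 0 to 2 over the libraries left out. Over all tested genes, 689 were called, against 1665 with the adjusted p alone, 1164 with the replicate block, 9961 with the neural crest scaling and 0 to 1245 over the libraries left out, the 0 being that without control replicate 1; the cause was not tested. Deviations of same-numbered samples correlated at 0.0284, −0.0335 and 0.293, and those of differently numbered samples at −0.295 to 0.261. These values cannot decide whether the samples were paired, and the replicate block joins them by number alone. With the block 4 of the 5 genes tested had an adjusted p of at most 0.1 and the same log2 fold changes to within 0.02. The share of all tested genes at that adjusted p alone was not counted in this fit. The 4 are thus not a result about these genes. Lcn2 turned to −0.0095 with the macrophage scaling and Ngp to 0.84 with the neural crest scaling.

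The difference in the neutrophil sum was 57.8 CPM, −0.674 CPM without Lcn2 and Csf3r, 2.27 when divided by macrophage counts (exact permutation p = 0.8) and −1.32 with both changes; dividing by macrophage counts was added after the values were seen and gave 4.39 for the S100 pair (exact permutation p = 0.1). The difference in the neutrophil sum ran from 44.4 to 70.4 CPM over the libraries left out. With library totals in place of TMM it was 76.0 CPM (exact permutation p = 0.2). On that scale the macrophage sum differed by 2485 CPM (exact permutation p = 0.3) and the S100 pair by 7.28 CPM (exact permutation p = 0.1). The S100a8 and S100a9 sum differed by 6.60 CPM (5.58 to 8.03), the macrophage sum by 1881 CPM (1422 to 2409) and the log2 ratio of the pair to the 8 neutrophil genes by 0.344 (0.26 to 0.43). The monocyte sum differed by −1.39 CPM and changed sign with library totals (30.4 CPM), DESeq2 size factors (7.36 CPM), 3 of the libraries left out (range −15.6 to 5.96 CPM) and, added later, without Fn1 and Vcan (58.1 CPM). Permutation p-values here cannot fall below 0.1. Counts under about 15 over all libraries, as for Mpo, Elane and Ly6g, allow no comparison of conditions.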
